A study of Mus musculus with 6 samples.

Results

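Prdm1, Bcl6 and Bcl6b are 3 genes for DNA-binding transcriptional repressors, and their RNA was followed in muscle of control mice and of mice whose labels give a conditional Igf2 knockout. They were taken by gene name, 3 of the 54532 genes in the deposited table, and all 3 passed the filter on low counts that left 14867 genes for testing. Prdm1 and Bcl6b had been picked because they were lower in the Igf2 knockout, and Bcl6 was added as the relative of Bcl6b. Their difference between the genotypes is therefore a description and not a test.

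All 6 animals were on a C57BL/6 background and carried Igf2 alleles with loxP sites around exon 2 on both chromosomes (Igf2f/f). The 3 knockouts were Mck-Cre+; Igf2f/f (Igf2 cKO), in which Cre recombinase is driven by the muscle creatine kinase promoter, active in striated muscle fibres rather than in the vessel, immune or connective tissue cells around them. The 3 controls were littermates without Cre (Mck-Cre-; Igf2f/f). The labels give no muscle, age or sex, and the animals are called controls 1 to 3 and knockouts 1 to 3 by their label numbers.

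BLIMP1, the product of Prdm1, is a zinc finger protein with a PR domain that drives B cells to become plasma cells, and in zebrafish its relative is needed for slow muscle fibres to form. BCL6 holds germinal centre B cells and follicular helper T cells in their state, binding DNA through zinc fingers and recruiting corepressors through a BTB domain. In lymphocytes BCL6 and BLIMP1 repress each other's genes, and BCL6 shares DNA sites with the cytokine-activated factor STAT5. BCL6B (BAZF) is the closest relative of BCL6 and is known from endothelial cells and lymphocytes.

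Total counts per library ran from 16184371 to 17905203. The muscle fibre markers, all 10 of them tested, summed to between 118300 and 140800 CPM (counts scaled to library size) in controls and between 94310 and 120700 CPM in Igf2 cKO. Igf2 itself had 60, 43 and 39 counts in controls 1 to 3 and 33, 37 and 42 in knockouts 1 to 3. The table sums each gene over all its exons and all cells, so this does not check the genotype labels. A few libraries stood apart on marker lists. Knockout 2 held 2962 CPM of the 11 slow fibre markers, against 660 CPM in each of the other Igf2 cKO libraries and between 1514 and 1650 CPM in controls. Control 3 held 366 CPM of the 12 macrophage markers, against 705 and 730 CPM in the other controls, and knockout 1 held 1785 CPM of the 15 endothelial markers, against 2245 CPM or more in every other library.

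Prdm1 RNA was 3.64-fold lower in Igf2 cKO muscle. The gene (ENSMUSG00000038151) lies on the minus strand of chromosome 10 at 44437177 to 44528501 (GRCm38). It had 160, 169 and 120 counts in controls 1 to 3 and 43, 43 and 35 counts in knockouts 1 to 3. Every Igf2 cKO library lay below every control library, and the exact Poisson 95% intervals of the counts, which cover counting error only, ran from 99.5 to 197 in controls and from 24.4 to 57.9 in Igf2 cKO. Per gene length the level was 1.54 ± 0.142 FPKM, the deposited value scaled by gene length and library size, in controls and 0.424 ± 0.0517 FPKM in Igf2 cKO (SD, n = 3 each). The edgeR log2 fold change, Igf2 cKO over control, was -1.86 ± 0.19 (SE, 95% interval -2.29 to -1.44), and the 9 pairings of a knockout with a control library gave values between -2.19 and -1.56. This low-abundance gene, above 21.2% of the genes tested in mean FPKM, was the scarcest of the 3 in each library.

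Bcl6b was also lower, by 2.33-fold. It had 830, 755 and 758 counts in controls 1 to 3 and 280, 330 and 383 counts in knockouts 1 to 3 (ENSMUSG00000000317, chromosome 11, 70224128 to 70229798, minus strand). The groups did not overlap, and knockout 1 was the lowest library. The deposited level was 12.2 ± 1.00 FPKM in controls and 5.24 ± 0.985 FPKM in Igf2 cKO (SD, n = 3 each), with a log2 fold change of -1.22 ± 0.14 (SE, 95% interval -1.55 to -0.89).

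Bcl6, in contrast to its relative, was not lower in any Igf2 cKO library than in a control once scaled to library size. It had 1491, 1747 and 1253 counts in controls 1 to 3 and 3332, 1692 and 2315 counts in knockouts 1 to 3 (ENSMUSG00000022508, chromosome 16, 23965052 to 23988852, minus strand). Scaled to library size these were 80.7, 97.7 and 81.9 CPM against 186, 105 and 137 CPM, so the groups did not overlap, but knockout 2 stood close to control 2. The level was 12.9 ± 1.40 FPKM in controls and 21.2 ± 6.00 FPKM in Igf2 cKO (SD, n = 3 each). Its fold on the log2 scale was 0.72 ± 0.20 (SE, with a 95% interval from 0.27 to 1.16) and became 0.48 without knockout 1. Gm37419, annotated on the opposite strand inside Bcl6, had between 1 and 12 counts a library, and no strand setting is given in the sources used here to keep its reads apart.

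**Figure D1:**
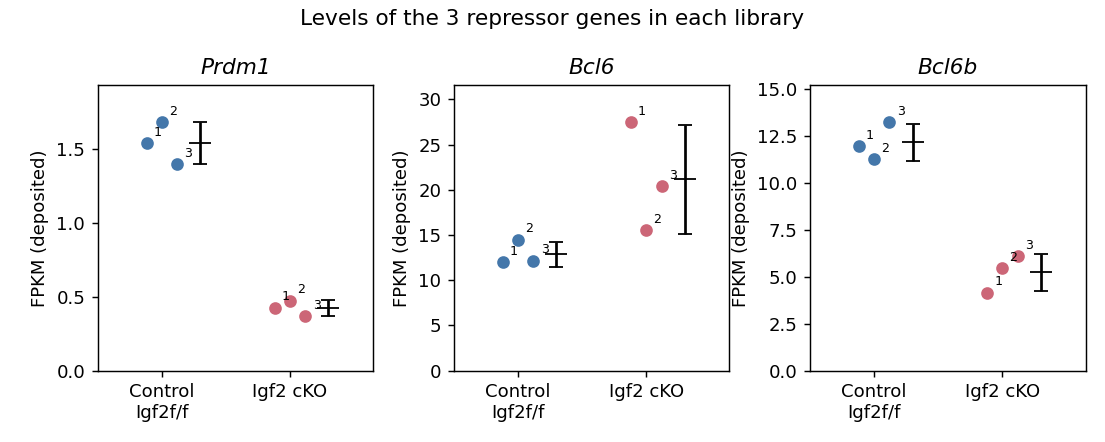
Deposited FPKM of Prdm1, Bcl6 and Bcl6b in each library, by genotype; numbers are replicates and bars are the mean ± SD of 3 libraries. For Prdm1 and Bcl6b the 3 Igf2 cKO libraries sit below the 3 controls, and for Bcl6 they sit above, with knockout 2 nearest to the controls.

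The values that chose the genes were an adjusted p of 0.00793 for Prdm1 and 0.0156 for Bcl6b in edgeR's quasi-likelihood test with Benjamini-Hochberg adjustment. Bcl6 had 0.263. Across all genes tested, 10 (0.0673%) were called lower at an adjusted p under 0.05 and 27 (0.182%) higher, while 7.67% of genes had all Igf2 cKO libraries below all controls and 7.83% had them all above. Because the genes were chosen on this contrast, nothing is read from these shares. The Prdm1 call was lost without control 1 (adjusted p = 0.0503) or control 2 (adjusted p = 0.0513), and the Bcl6b call without control 1 (0.0703), 2 (0.0557) or 3 (0.105), while the folds moved little. DESeq2 called Bcl6 higher (adjusted p = 0.0311), and so did edgeR with no filter on low counts (adjusted p = 0.0121). In the authors' deposited table, where single libraries of like number were compared, Prdm1 had log2 fold changes of -1.85, -1.83 and -1.92 for replicates 1 to 3, with adjusted p of 0.0385, 0.0461 and 0.0218. In the authors' deposited table Bcl6b stood at -1.52, -1.05 and -1.13 (adjusted p = 0.0797, 0.601 and 0.431), and Bcl6 at 1.21, 0.10 and 0.74 (adjusted p = 0.301, 1.0 and 1.0).

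**Figure D2:**
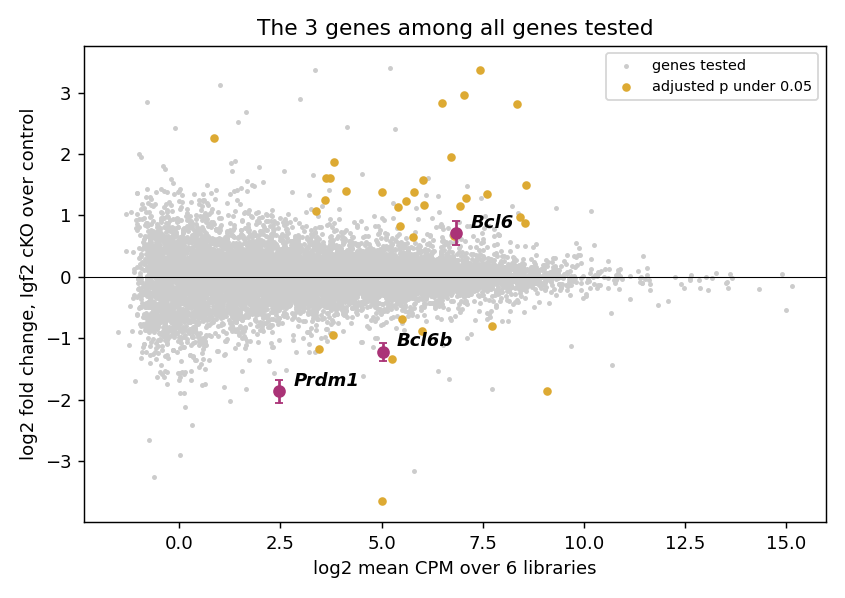
Log2 fold change (Igf2 cKO over control) against log2 mean CPM for the 14867 genes tested, with genes at an adjusted p under 0.05 in yellow and the 3 repressor genes in purple with their SE. Prdm1 at -1.86 and Bcl6b at -1.22 lie at the lower edge of genes of their abundance, and Bcl6 at 0.72 lies above 97.4% of the folds.

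The balance among the 3 genes within a library moved accordingly. In controls Bcl6 and Bcl6b stood at like levels per length, with Bcl6 to Bcl6b ratios of FPKM of 0.997, 1.28 and 0.918 in replicates 1 to 3, neighbours that did not differ beyond the spread of the libraries, and Prdm1 was far below both. In knockouts 1 to 3 the ratio of Bcl6 to Bcl6b was 6.61, 2.85 and 3.36. The ratio of Bcl6 to Prdm1, the pair that oppose each other in lymphocytes, was 7.76, 8.61 and 8.70 in controls 1 to 3 and 64.5, 32.8 and 55.1 in knockouts 1 to 3. Bcl6b to Prdm1 changed least, from between 6.70 and 9.48 in controls to between 9.77 and 16.4 in Igf2 cKO. These ratios restate the same contrast and carry no test.

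The spread among replicates also differed between the genes. Bcl6 varied most, with a coefficient of variation of 10.9% among controls and 28.7% among Igf2 cKO libraries. Its fitted biological variation lay above that of 94.4% of the 500 tested genes nearest to it in abundance. Prdm1 varied by 9.28% and 12.5%, at the 15.2 percentile of its own 500 neighbours in abundance, and Bcl6b by 8.15% and 18.4%, at the 80.6 percentile of its own.

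Bcl6 and Bcl6b are paralogues, so shared reads were looked for. Their transcripts in GENCODE release M21 had 0 of 6726 and 3713 stretches of 31 bases in common, and neither shared any with Prdm1. The longest run common to both coding sequences was 17 bases, in the zinc finger region. It is shown in capitals, with 30 bases of flank on each side, because it marks the closest approach of the 2 sequences. In Bcl6 the 77 bases cross the junction of exons 8 and 9 (chr16:23968133-23968318, minus strand, GRCm38), and in Bcl6b that of exons 7 and 8 (chr11:70226560-70226720, minus strand, GRCm38). Of the 77 positions 63 (81.8%) are identical.
Bcl6: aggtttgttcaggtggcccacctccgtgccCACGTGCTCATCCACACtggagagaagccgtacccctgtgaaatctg
Bcl6b: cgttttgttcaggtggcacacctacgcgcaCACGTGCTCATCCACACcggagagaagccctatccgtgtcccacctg

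The bases upstream of the RefSeq transcript starts of Prdm1 and Bcl6 are shown because the folds of these genes lay on opposite sides of 0, and because BCL6 and STAT5 recognise like sequences. Each is 250 bases before a start, 5′ to 3′, on the minus strand of GRCm38.p6. RefSeq's table gives 1 start for Prdm1 (chr10:44458749-44458998) and 2 for Bcl6 (chr16:23988853-23989102 for the upstream start, chr16:23981284-23981533 for the downstream one). The Prdm1 window and the downstream Bcl6 window lie inside the genes as annotated in GENCODE. Prdm1 extends there to 44528501, and the bases before that 5′ end were not searched. The bases upstream of Bcl6b were not analysed here. Capitals mark matches to TTCNNNGAA, the palindrome bound by STAT factors, on either strand.
Prdm1: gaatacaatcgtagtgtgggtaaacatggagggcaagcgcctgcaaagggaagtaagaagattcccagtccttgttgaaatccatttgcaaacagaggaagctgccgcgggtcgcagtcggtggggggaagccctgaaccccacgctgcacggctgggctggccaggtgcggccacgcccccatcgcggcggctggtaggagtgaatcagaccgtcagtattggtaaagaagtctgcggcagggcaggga
Bcl6 upstream: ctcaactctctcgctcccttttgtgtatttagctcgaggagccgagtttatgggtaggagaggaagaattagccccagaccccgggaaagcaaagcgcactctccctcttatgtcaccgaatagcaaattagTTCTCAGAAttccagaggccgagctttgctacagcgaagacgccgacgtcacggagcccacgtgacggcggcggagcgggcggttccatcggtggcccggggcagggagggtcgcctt
Bcl6 downstream: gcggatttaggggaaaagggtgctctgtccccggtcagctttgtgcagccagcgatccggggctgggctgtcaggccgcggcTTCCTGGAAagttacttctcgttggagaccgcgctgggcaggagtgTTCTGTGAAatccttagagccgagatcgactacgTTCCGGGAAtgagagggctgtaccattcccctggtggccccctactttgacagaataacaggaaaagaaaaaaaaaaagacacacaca

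The downstream Bcl6 window held 3 matches, TTCCTGGAA, TTCTGTGAA and TTCCGGGAA, at 168, 122 and 88 bases before the start. The upstream Bcl6 window held 1, TTCTCAGAA, at 118 bases, and the Prdm1 window 0. Of the same 250 bases before each of 32851 starts in RefSeq's table, 7.02% held at least 1. The first of the 3 also matches TTCCTNGAA, the narrower BCL6 form contained in TTCNNNGAA, found in 1.31% of windows. The BLIMP1 core AGNGAAAG (7.30% of windows) and the glucocorticoid receptor element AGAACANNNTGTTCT (0.00913%) had 0 matches in the 3 windows. Both strands were searched, and a match is a description of letters, not of a bound site.

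The receptors, kinases and factors that act upstream of these genes showed no call. Of 21 listed, 19 were tested, and edgeR, DESeq2 and limma-voom each called 0, with 2 at an unadjusted p under 0.05, a level that 9.93% of all genes tested reached. Jak2, a kinase of cytokine receptors, had 73.5, 79.6 and 94.1 CPM in controls 1 to 3 and 68.9, 51.6 and 62.7 CPM in knockouts 1 to 3 (log2 fold change -0.43 ± 0.14 SE, adjusted p = 0.332). Foxo1, a forkhead factor restrained by insulin signalling, stood at 0.28 (adjusted p = 0.384). The list median was -0.17, beside 0.00 over all genes tested. Stat3 (-0.18, adjusted p = 0.683), Stat5a (-0.23, adjusted p = 0.61), Stat5b (-0.21, adjusted p = 0.738) and Irf4 (0.01, adjusted p = 0.992) were looked up as the factors best known to act on Prdm1 and Bcl6, after their values were seen.

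Partners of the 2 proteins were expressed in all libraries. Of 13 corepressors of BCL6, all tested, edgeR and limma-voom called 0 and DESeq2 1, with 4 at an unadjusted p under 0.05, each lower in Igf2 cKO. Over all genes to which DESeq2 gave an adjusted p, it called 1.47%, and 9.93% of all genes tested had an unadjusted p under 0.05 in edgeR. Sin3a, the scaffold of a histone deacetylase complex, had 42.1, 37.2 and 41.5 CPM in controls 1 to 3 and 28.5, 28.2 and 26.4 CPM in knockouts 1 to 3. Its log2 fold change was -0.54 ± 0.09 (SE), short of the threshold in edgeR (adjusted p = 0.0815) and past it in DESeq2 (adjusted p = 0.00431). Bcor, which binds the BTB domain of BCL6, stood at -0.37 ± 0.09 (SE, adjusted p = 0.22). Of 9 corepressors of BLIMP1, 0 were called by any of the 3 tools and 2 had an unadjusted p under 0.05. These were the Groucho relatives Tle4 at -0.34 (adjusted p = 0.312) and Tle3 at 0.48 (adjusted p = 0.388). The medians of the 2 lists were -0.05 and 0.02.

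Genes reported as direct targets elsewhere, mostly in lymphocytes, gave 1 call. Of 18 listed BCL6 targets 16 were tested, and edgeR called 1 higher, 6.25% of the list beside 0.249% of all genes tested. DESeq2 called 3, beside 1.47% of all genes, and limma-voom 1, beside 0.229%. The list was chosen with earlier results of these data known, so nothing is read from these shares. The called gene was Cdkn1a, the gene of the cell cycle inhibitor p21. Its level was 28.5, 30.2 and 29.1 CPM in controls 1 to 3 and 59.7, 85.3 and 61.1 CPM in knockouts 1 to 3. It rose by 1.23 ± 0.14 on the log2 scale (SE, adjusted p = 0.0156). Without control 1, 2 or 3 the adjusted p of Cdkn1a was 0.102, 0.0869 and 0.113. The list median was -0.14, with 6 members above 0 and 10 below. Cish and Socs2, feedback inhibitors of STAT5 signalling, were looked up after their values were seen. Cish had 122, 188 and 152 CPM in controls 1 to 3 and 10.8, 112 and 22.9 CPM in knockouts 1 to 3 (-1.67 ± 0.70 SE, adjusted p = 0.485), and Socs2 stood at -0.24 (adjusted p = 0.659). Every Igf2 cKO library of Cish was below every control, as in 7.67% of all genes tested.

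Of 9 BLIMP1 targets only 4 were tested, and edgeR, DESeq2 and limma-voom each called 0. Of these 4, 1 had an unadjusted p under 0.05, beside 9.93% of all genes tested. The median of these 4 was -0.34, with 0 above 0 and 4 below. The lymphocyte genes Pax5, Spib, Il2, Ifng and Cxcr5 did not pass the filter on low counts. Myc, a growth-promoting factor that BLIMP1 represses in B cells, had 12.7, 14.2 and 12.1 CPM in controls 1 to 3 and 11.7, 9.47 and 7.57 CPM in knockouts 1 to 3 (-0.44 ± 0.17 SE, adjusted p = 0.45). Tcf7, a T cell factor, was at or under 1.95 CPM (-0.50, adjusted p = 0.728).

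Other members of the 2 protein families were examined beside the 3 genes. Of 14 further PRDM genes 10 were tested and 0 were called by any of the 3 tools, with 0 at an unadjusted p under 0.05. Prdm15 stood at 0.28 ± 0.12 (SE, adjusted p = 0.516) and Prdm9, the meiotic recombination factor, at 0.53 ± 0.27 (SE, adjusted p = 0.592). Of 46 BTB zinc finger genes 45 were in the table and 42 were tested. There were 0 calls by edgeR and limma-voom and 1 by DESeq2, which called 1.47% of all genes. In edgeR 8 had an unadjusted p under 0.05, 4 in each direction, beside 9.93% of all genes tested. Zbtb16 (PLZF) had 23.9, 52.0 and 32.4 CPM in controls 1 to 3 and 77.9, 90.0 and 68.0 CPM in knockouts 1 to 3. All its Igf2 cKO libraries lay above all controls, as did those of 7.83% of all genes tested. Its log2 fold change of 1.12 ± 0.25 (SE) missed the threshold in edgeR (adjusted p = 0.177) and passed it in DESeq2 (adjusted p = 0.00127). Patz1 stood at -0.46 ± 0.10 (SE, adjusted p = 0.162). The list medians were 0.08 for PRDM genes and -0.10 for BTB zinc finger genes.

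**Figure D3:**
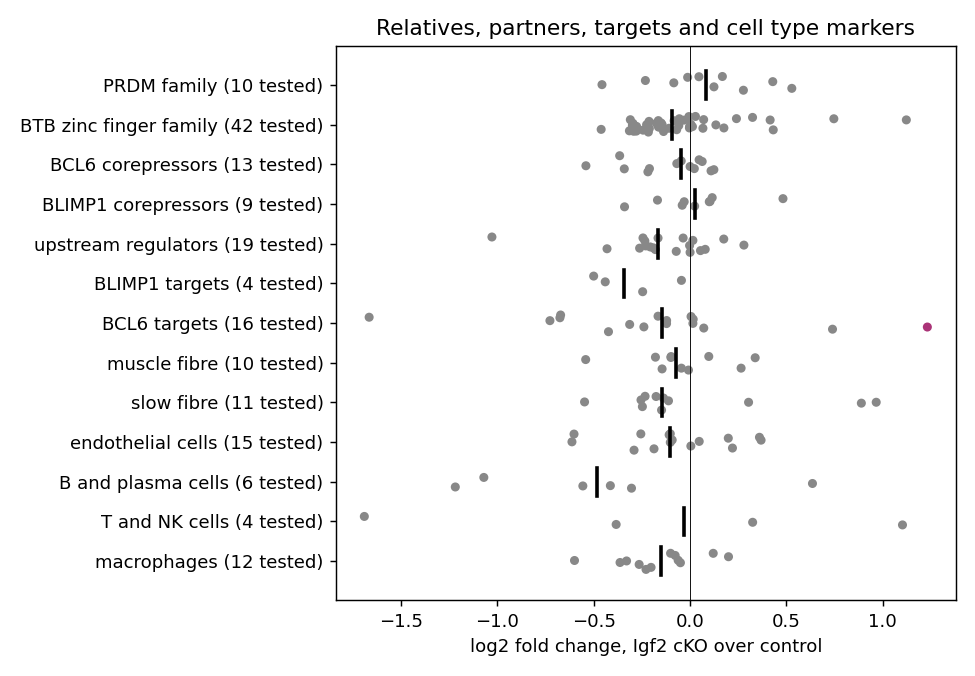
Log2 fold change (Igf2 cKO over control) of every tested gene in 13 lists, 1 point a gene, with the list median as a black bar and genes at an adjusted p under 0.05 in purple. The medians lie between -0.48 and 0.08, and the purple point is Cdkn1a at 1.23.

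Bulk RNA cannot tell fewer cells of a type from less RNA per cell, so the markers of cells known to express the 3 genes are set beside them. Of the 15 endothelial markers, all tested, 0 were called by any of the 3 tools. Of them 3 had an unadjusted p under 0.05, all lower, beside 9.93% of all genes tested in either direction. The median log2 fold change of the 15 was -0.10 and none was at 0 counts. Their sum was 2523, 2381 and 2245 CPM in controls 1 to 3 and 1785, 2634 and 2389 CPM in knockouts 1 to 3, so 2 of the 3 knockouts lay within or above the controls. Of the 15, 6 had folds above 0 and 9 below. Pecam1 and Cdh5, which define endothelium, each stood at -0.10 (adjusted p = 0.907 and 0.903, looked up after their values were seen). Other markers lay further from 0, with Kdr at -0.60 (adjusted p = 0.493), Eng at 0.37 (adjusted p = 0.54) and Robo4 at 0.36 (adjusted p = 0.551). Cldn5, a tight junction gene of vessels, stood at -0.61 ± 0.18 (SE, adjusted p = 0.281) and Egfl7 at -0.26 (adjusted p = 0.467). The log2 CPM of Bcl6b less the mean log2 CPM of these markers was -1.56, -1.60 and -1.25 in controls 1 to 3. In knockouts 1 to 3 it was -2.60, -2.74 and -2.46. The library with the fewest endothelial marker counts, knockout 1, was also the one with least Bcl6b. Without knockout 1 the log2 fold change of Bcl6b was -1.08. The part of endothelial content in the Bcl6b result was not tested.

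Immune markers were set beside Prdm1 in the same way. Of 12 B and plasma cell markers 6 were tested and 0 were called by any of the 3 tools. Of these 6, 3 had an unadjusted p under 0.05, all lower, beside 9.93% of all genes tested in either direction. The 12 listed genes summed to between 44.5 and 62.1 CPM in controls and between 26.9 and 41.5 CPM in Igf2 cKO. These groups did not overlap, and 7.67% of all genes tested likewise had every Igf2 cKO library below every control. The part of B and plasma cell content in the Prdm1 result was not tested. Most of each sum was Ighm, the antibody heavy chain gene, at 33.6, 34.5 and 51.0 CPM in controls 1 to 3 and 31.7, 18.0 and 31.1 CPM in knockouts 1 to 3. The list median was -0.48. Jchain, which joins secreted antibodies, stood at -1.22 (adjusted p = 0.384) and the antibody light chain gene Igkc at -1.07 (adjusted p = 0.477). Cd79a and Ms4a1, which did not pass the filter, had means of 0.634 and 0.217 CPM in controls and 0.194 and 0.199 CPM in Igf2 cKO. Prdm1 in controls, at 8.65 CPM, lay above these 2 genes and below Ighm. None of the 12 was at 0 in all libraries. T and NK cell markers summed to between 6.61 and 8.33 CPM in controls and between 4.91 and 7.20 CPM in Igf2 cKO. Of these 13 genes 4 were tested, with 0 calls by any of the 3 tools and 1 at an unadjusted p under 0.05, Trac at -1.69 (adjusted p = 0.477). Cd4 stood at 1.10 (adjusted p = 0.655), and Cd3d had no count in Igf2 cKO libraries.

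Macrophage markers, 12 of 12 tested, had 0 calls by any of the 3 tools. Of them 1 had an unadjusted p under 0.05, beside 9.93% of all genes tested, and their median was -0.15. They summed to between 366 and 730 CPM in controls and between 436 and 612 CPM in Igf2 cKO. Control 3, the library with the fewest macrophage markers, had the least Prdm1 of the controls, at 7.85 CPM against 8.66 and 9.45 CPM. The highest Igf2 cKO library had 2.66 CPM of Prdm1. The part of macrophage content in the Prdm1 result was not tested. Itgam stood at -0.60 (adjusted p = 0.399) and Lyz2, the macrophage lysozyme, at -0.36 (adjusted p = 0.657).

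**Figure D4:**
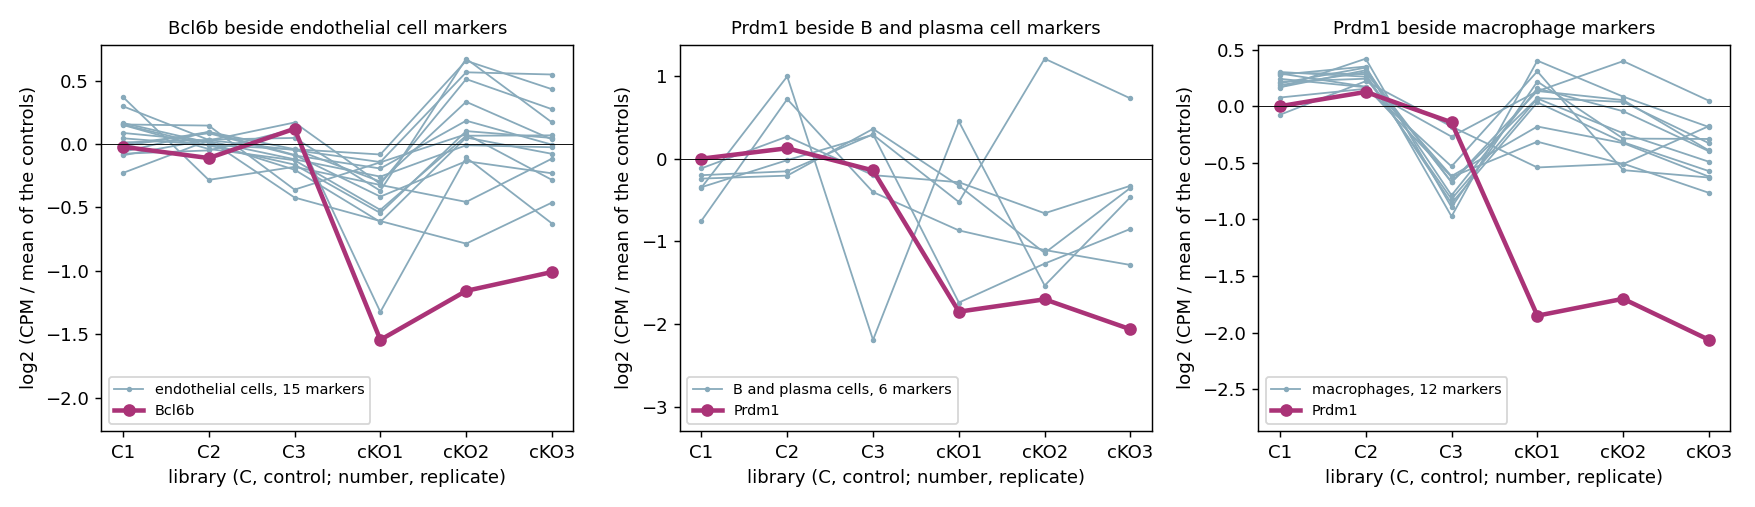
CPM in each library relative to the mean of the controls, on a log2 scale, for Bcl6b with 15 endothelial markers (left), Prdm1 with 6 B and plasma cell markers (middle) and Prdm1 with 12 macrophage markers (right); a line joins the values of 1 gene and the libraries have no order. Bcl6b and Prdm1 drop in all 3 Igf2 cKO libraries, while no marker passed the test, endothelial markers are low in knockout 1, B and plasma cell markers had 5 of 6 folds below 0, and macrophage markers are low in control 3.

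Slow fibre markers bear on Prdm1 because of its role in zebrafish. Of 11 tested, 0 were called by any of the 3 tools and the median was -0.15, with 3 folds above 0 and 8 below. An unadjusted p under 0.05 was found for 1, beside 9.93% of all genes tested. With 1 library left out, edgeR called between 0 and 8 of the 11, and the median lay between -1.41 and 0.21. The 8 calls, all lower, and the -1.41 came without knockout 2, where 0.244% of all genes tested were called lower. Knockout 2 is the library rich in these same markers, so lower values without it follow from that choice and are not a test. Prdm1 had 2.40, 2.66 and 2.07 CPM in knockouts 1 to 3, highest in knockout 2. Without knockout 2 the log2 fold change of Prdm1 in edgeR was -1.95. The part of slow fibre content in the Prdm1 result was not tested. Csrp3, a muscle LIM protein gene, stood at 0.97 ± 0.36 (SE, adjusted p = 0.426), and Myh7b at 0.89 ± 0.88 (SE, adjusted p = 0.807). Myh7b had 0.61, 12.9 and 1.66 CPM in knockouts 1 to 3, so its fold above 0 rests on knockout 2. Among the general muscle fibre markers, 10 of 10 tested with 0 calls by any of the 3 tools and 0 at an unadjusted p under 0.05, the median was -0.07. Myh4, the fastest myosin, was at -0.54 (adjusted p = 0.622) and Myh1 at 0.34 (adjusted p = 0.797).

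The genes whose pattern over the 6 libraries was most like each of the 3 were found by the root-mean-square difference of centred log2 CPM, among 13777 genes with a mean of at least 1 CPM. For Prdm1 they were Fgr, a Src family kinase gene (0.249 log2 units), Ccna2, cyclin A2 (0.289), the amino acid transporter gene Slc43a1 (0.302) and Aspm, a spindle gene (0.343). Of these edgeR called only Slc43a1 (adjusted p = 0.00217), while Fgr, Ccna2 and Aspm had 0.141, 0.141 and 0.194. Fgr and Aspm, at most 0.725 and 0.619 CPM in Igf2 cKO libraries, rest on few reads there. Bcl6b ranked 14th for Prdm1, at 0.392 log2 units, and Prdm1 ranked 183rd for Bcl6b. Both genes were picked for being lower in Igf2 cKO, so nothing is read from their likeness. Slc43a1 had 50.9, 55.0 and 57.9 CPM in controls 1 to 3 and 22.7, 19.9 and 22.1 CPM in knockouts 1 to 3. For Bcl6b the nearest were Gm26526 (0.152), Fam84b (0.163), Ankrd34a (0.196) and again Slc43a1 (0.207). Of these Gm26526 and Ankrd34a were not called by edgeR (adjusted p = 0.284 and 0.276). For Bcl6 they were the centrosome gene Cep152 (0.0823), D830036C21Rik (0.117), Ppp1r14a (0.118) and Adam1a (0.119), none of them called by edgeR (adjusted p between 0.267 and 0.629). Each follows the Bcl6 order of knockouts, with replicate 1 highest and replicate 2 lowest, as in Cep152 at 6.75, 4.21 and 5.32 CPM in knockouts 1 to 3. The likeness is a description over 6 libraries that share the genotype contrast.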

How the data were processed

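Per the labels, muscle RNA was extracted with Trizol and a company sequenced it on an Illumina NovaSeq. The aligner, counter, strand setting and genome build were not given in the sources used here. The 1 deposited table holds, per the file headers, raw counts and FPKM per gene and library, and the authors' log2 fold change and adjusted p-value for 3 comparisons of single libraries. Another 6 columns of per-sample values were not used. Of 54409 gene identifiers found in GENCODE M21, 98.3% have the same coordinates there, which are of GRCm38.

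Counts were tested with edgeR 4.0.16 (quasi-likelihood, R 4.3.3) with TMM factors, filterByExpr, genotype as the term and Benjamini-Hochberg adjustment over 14867 genes, calling at an adjusted p under 0.05. The SE was derived from the F statistic. CPM uses TMM library sizes, and centred log2 CPM a prior count of 2. Alternatives were other size factors, other filters, DESeq2 1.42.0, limma-voom (limma 3.58.1), the replicate number as a block, leaving out each library, an adjusted p under 0.1, and, for levels and likeness, TMM-scaled counts per length and a prior count of 0.5.

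Named from each list were up to 3 called genes, or the 2 with the smallest p where none was called, and the 4 genes most like each repressor gene. Members and lists were chosen with earlier results of these data known, and the promoter motifs after the sequences had been read. With 16184371 to 17905203 counts a library, genes under about 1 CPM rest on few reads.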

Additional observations from a re-analysis of the deposited data

How the results depend on the processing

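Prdm1 kept a negative log2 fold change in all 13 alternatives, between -1.95 and -1.78, and Bcl6b between -1.34 and -1.08, while Bcl6 stayed between 0.48 and 0.89. With 1 library left out, adjusted p ran from 0.00771 to 0.0513 for Prdm1, from 0.0195 to 0.105 for Bcl6b and from 0.0609 to 0.516 for Bcl6. Bcl6 was called at 0.71 by DESeq2 (adjusted p = 0.0311) and at 0.71 with no low-count filter (adjusted p = 0.0121). The cause was not tested.

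Genes called lower numbered 10, and 101 with DESeq2, 127 with no low-count filter, 23 at an adjusted p under 0.1 and between 1 and 37 with 1 library left out. Genes called higher numbered 27, and 113 with DESeq2, 155 with no low-count filter and between 7 and 31 with 1 library left out.

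The labels do not say whether replicate numbers pair the samples. Same-numbered libraries had deviations from their group means that correlated at 0.163, 0.0581 and -0.0425. Libraries of unlike number correlated between -0.183 and 0.122. With so few libraries in a group these values cannot decide whether the samples were paired. With the replicate block Prdm1 stood at -1.86 (adjusted p = 0.0167), Bcl6 at 0.68 (0.287) and Bcl6b at -1.23 (0.0169), all on the same side of the threshold.

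Named genes that reversed were Myh1, between -0.14 and 0.61 with 1 library left out, and Myh7b, between -1.26 and 1.42 there and at -0.23 in limma-voom. The lowest of these left-out values came without Igf2 cKO replicate 2 in both. Of the 4 genes most like each repressor gene, 4, 3 and 4 were shared at the other prior count for Prdm1, Bcl6 and Bcl6b. Counts of Prdm1 in Igf2 cKO, at most 43 a library, limit how finely its level there is known.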
